A study of Mus musculus with 12 samples.

Results

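The genes described here encode the proteasome, read in mouse splenic B cells of 2 Foxp1 genotypes with and without IgM. They were taken by name: every gene whose symbol in the array annotation began with Psma, Psmb, Psmc, Psmd or Psme followed by a number. This gave 44 genes, read by 91 probe sets that name 1 gene, of 18193 genes with such a probe set. Where a gene had several, the one of highest mean level over the arrays stood for it. Psmc3ip and Psme3ip1 carry the prefix but encode proteins that bind a subunit or an activator, and both were set aside. Psma8, the testis-specific alpha subunit, and Psmb11, the thymus-specific beta subunit, did not pass the filter on low values: no array exceeded 2.25 for Psma8 or 2.39 for Psmb11, against an array floor of 2.23. The remaining 40 genes were tested among 9293 genes in all. They comprised 4 immunoproteasome genes (Psmb8, Psmb9, Psmb10 and Psme1) and 36 other genes. Psme2, the fifth immunoproteasome gene, was read only by a probe set that also names Psme2b, so it has no value here.

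The 4 groups were Foxp1flox/del cells given IgM, Foxp1flox/del cells left unstimulated, Foxp1wt/flox cells given IgM and Foxp1wt/flox cells left unstimulated, with 3 arrays each. B220-positive cells were sorted from spleens of mice on a mixed 129/Sv-C57BL/6 background and kept for 4 h with or without what the labels call IgM. Every mouse carried a flox allele of Foxp1, a forkhead transcription factor gene. Recombination of that allele is not described in the labels, and separate animals are not stated for the replicates. The p-values therefore cover only the variation among these samples, which may be technical. Values are log2 expression after GCRMA normalization, and a log2 difference of 1 is a doubling.

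The proteasome degrades proteins tagged with ubiquitin. Its core, the 20S particle, is a barrel of alpha and beta rings, and 3 of the beta subunits (Psmb5, Psmb6 and Psmb7) carry the proteolytic sites. The 19S cap recognises tagged proteins, removes the tag and threads the protein into the core with a ring of ATPases. In lymphocytes and in cells exposed to interferon, Psmb8, Psmb9 and Psmb10 are built into new cores in place of Psmb5, Psmb6 and Psmb7, and such immunoproteasomes favour peptides that fit class I molecules. Psme1 and Psme2 form an alternative cap that opens the core, and Psme3 and Psme4 encode further caps, found in the nucleus.

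Array data carry no read depth, so the number of arrays limits the precision. Flox/del IgM replicate 3 stood apart. It correlated with its group mates at 0.817 to 0.865 over the tested genes, where all other pairs within groups reached at least 0.951. The level of bacterial poly-A control RNAs fell with replicate number in every group. On the log2 scale, replicate 3 had 7.98 in flox/del unstimulated, 7.40 in wt/flox IgM and 8.02 in wt/flox unstimulated samples. On flox/del IgM replicate 3 these controls averaged 6.42, against 7.40 to 9.79 on the other 11 arrays. On this array 37 of the 40 proteasome genes lay below the mean of the other flox/del IgM arrays, by a median log2 difference of -1.87, while the median over all tested genes was 0.14. The difference was beyond 1 log2 unit downwards for 31 of the 40, against 25.9% of all genes tested. Psmd1, Psmd2 and Psme4 were the only members that lay higher there. Results are therefore given with all 12 arrays and without that array. Same-numbered arrays also varied together, so a fit blocked on that number is given where it changes a call. The blocked fit without that array called 53.5% of all tested genes for IgM in flox/del cells and 63.2% in wt/flox cells, and calls of members in it are read against those shares. Of 8 Foxp1 probe sets, 0 passed the test between genotypes, with flox/del minus wt/flox differences of -0.30 to 0.32 given IgM and -0.29 to 0.13 when unstimulated (limma, Benjamini-Hochberg, smallest adjusted p 0.656 and 1; 0 at an unadjusted p under 0.05 in either). Their position against the deleted region is not known here, so they do not check the genotype labels.

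The first question was how proteasome genes responded to IgM. The catalytic immunoproteasome genes lay lower with IgM in both genotypes, and the standard catalytic genes that they replace did not pass in either direction with all arrays or without replicate 3. In flox/del cells all 3 fell with all 12 arrays, where 9.21% of all tested genes fell and 9.78% rose. In wt/flox cells all 3 passed once flox/del IgM replicate 3 was left out of the fit, which shares its estimate of the spread across groups, and there 19.5% of all genes fell and 16.6% rose. Psme1, the alternative cap subunit, lay slightly lower in both genotypes and passed only in wt/flox cells in the blocked fit without replicate 3.

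Psmb8, whose product replaces Psmb5, had log2 values of 11.14, 11.28 and 8.74 on the flox/del IgM arrays (replicates 1, 2 and 3), against 12.30, 12.12 and 12.13 on the flox/del unstimulated arrays. It had 10.81, 10.55 and 10.23 on the wt/flox IgM arrays, against 12.41, 11.95 and 12.09 on the wt/flox unstimulated arrays. Every IgM array lay below every unstimulated array of its genotype. In flox/del cells Psmb8 fell by 1.80 ± 0.54 log2 units (SE, n = 3 per group), a 3.48-fold lower level (limma, adjusted p = 0.0399). Without replicate 3 it fell by 0.98 ± 0.20 (adjusted p = 0.00654). The wt/flox difference was -1.62 ± 0.54 (adjusted p = 0.0573). The adjusted p there was 0.000166 without the outlying flox/del array, 0.0232 with the replicate number as a block and 0.00352 in a fit to the wt/flox arrays alone.

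Psmb9, whose product replaces Psmb6, had log2 values of 10.39, 11.35 and 8.80 on the flox/del IgM arrays, against 11.62, 11.97 and 11.89 on the flox/del unstimulated arrays. The wt/flox IgM arrays gave 10.73, 10.78 and 10.53, against 11.90, 11.63 and 12.03 without IgM. The groups did not overlap in either genotype, and flox/del IgM replicate 2 lay closest to the unstimulated arrays. Psmb9 fell by 1.65 ± 0.49 in flox/del cells (adjusted p = 0.0378), and by 0.96 ± 0.27 without replicate 3 (adjusted p = 0.0253). The wt/flox difference was -1.17 ± 0.49 (adjusted p = 0.122), and the adjusted p was 0.00406 without the outlying flox/del array.

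Psmb10, whose product replaces Psmb7, showed the largest difference of the 40 genes in flox/del cells with all arrays. Its log2 values were 9.67, 9.71 and 7.07 on the flox/del IgM arrays, against 10.83, 10.94 and 10.76 on the flox/del unstimulated arrays. They were 9.61, 9.15 and 8.83 on the wt/flox IgM arrays, against 10.89, 10.63 and 10.64 without IgM. All IgM values lay more than 1 log2 unit below the lowest unstimulated value of their genotype. It fell by 2.03 ± 0.57 in flox/del cells (4.07-fold, adjusted p = 0.0309), and by 1.15 ± 0.21 without replicate 3 (2.22-fold, adjusted p = 0.00367). The wt/flox difference was -1.52 ± 0.57 (adjusted p = 0.0880), with an adjusted p of 0.000311 without the outlying flox/del array and of 0.0354 with the replicate block.

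Psme1 differed in size from these. It had 12.85, 12.83 and 10.84 on the flox/del IgM arrays, against 12.97, 13.05 and 13.05 without IgM. On the wt/flox arrays it had 12.86, 12.72 and 12.61 with IgM, against 13.08, 12.93 and 12.99 without. The groups did not overlap, but apart from flox/del IgM replicate 3 they lay close together. The difference was -0.85 ± 0.43 in flox/del cells (adjusted p = 0.202) and -0.27 ± 0.43 in wt/flox cells (adjusted p = 0.757). Without replicate 3 it was -0.19 ± 0.13 in flox/del cells (adjusted p = 0.351). The blocked fit without that array called it in wt/flox cells, at -0.27 ± 0.09 (adjusted p = 0.0253).

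**Figure D1:**
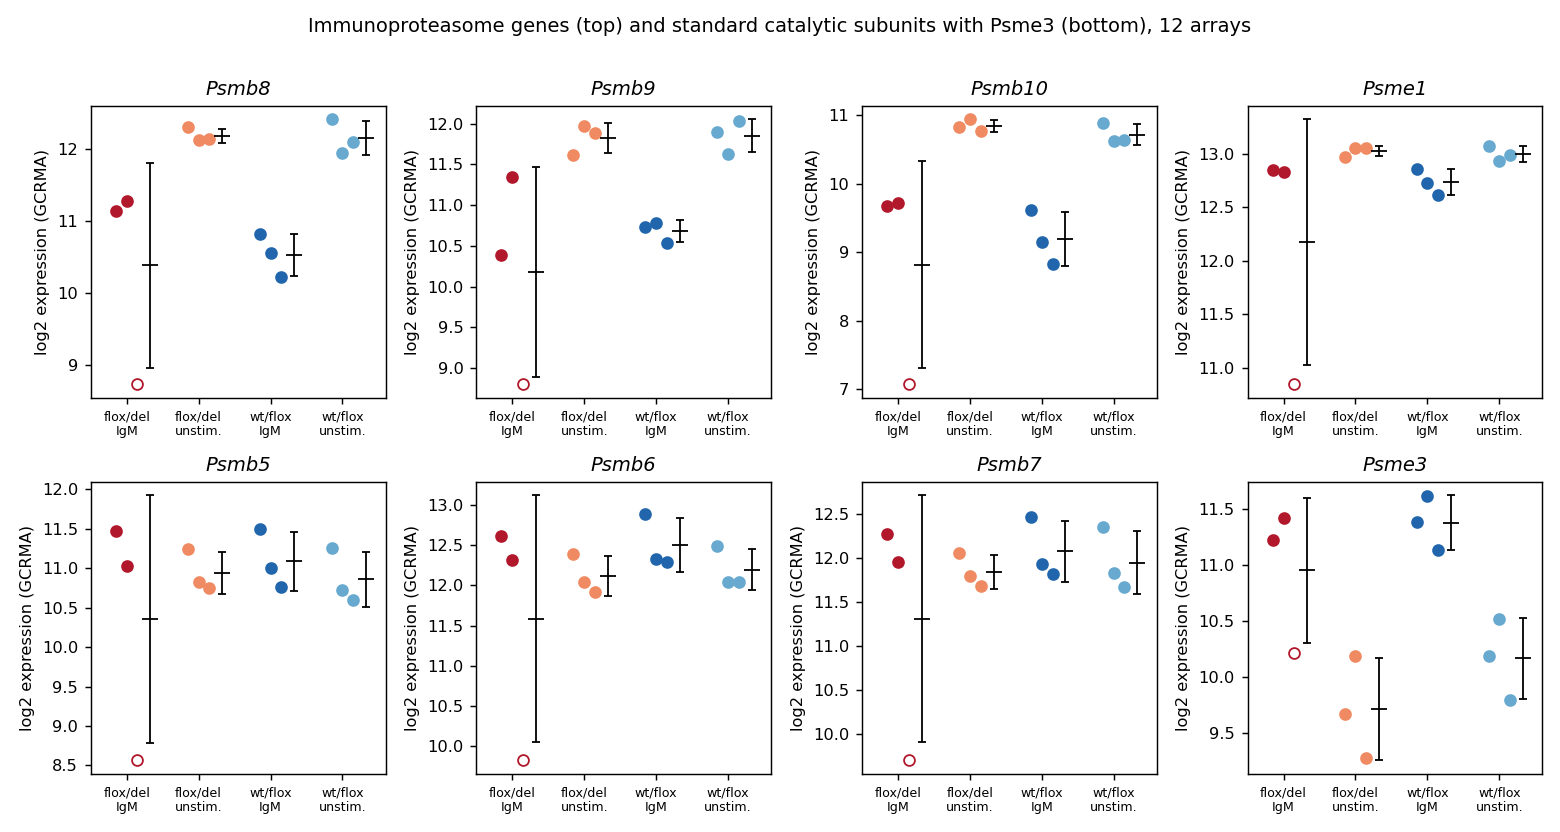
Log2 expression on each of the 12 arrays for the immunoproteasome genes Psmb8, Psmb9, Psmb10 and Psme1 (top) and for Psmb5, Psmb6, Psmb7 and Psme3 (bottom). Points are arrays, the open point is flox/del IgM replicate 3, and the bar beside each group is the mean ± SD of its 3 arrays. Psmb8, Psmb9 and Psmb10 lie lower with IgM in both genotypes, while Psmb5, Psmb6 and Psmb7 lie low only on the open point.

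The standard catalytic genes moved little on the arrays other than flox/del IgM replicate 3. Psmb5, which encodes the chymotrypsin-like site, had 11.47, 11.03 and 8.56 on the flox/del IgM arrays, against 11.25, 10.83 and 10.75 without IgM. In wt/flox cells it had 11.49, 11.00 and 10.76 with IgM, against 11.25, 10.73 and 10.60 without. The wt/flox groups overlapped, and the same numbered array was the highest in every group. Psmb6, which encodes the caspase-like site, had 12.61, 12.32 and 9.82 on the flox/del IgM arrays, against 12.39, 12.04 and 11.92 without IgM. It had 12.89, 12.33 and 12.29 with IgM in wt/flox cells, against 12.49, 12.05 and 12.05 without. Both pairs of groups overlapped. Psmb7, which encodes the trypsin-like site, had 12.27, 11.95 and 9.71 on the flox/del IgM arrays, against 12.06, 11.79 and 11.68 without IgM, and 12.46, 11.93 and 11.82 on the wt/flox IgM arrays, against 12.35, 11.83 and 11.67 without. It overlapped in both genotypes too. None of the 3 passed the test in any IgM comparison with all arrays or without replicate 3. Their log2 differences in flox/del cells were -0.59 ± 0.61, -0.53 ± 0.58 and -0.54 ± 0.55 with all arrays for Psmb5, Psmb6 and Psmb7, and turned to 0.31 ± 0.28, 0.35 ± 0.24 and 0.27 ± 0.26 without replicate 3. In wt/flox cells they were 0.23 ± 0.61, 0.31 ± 0.58 and 0.13 ± 0.55. There every IgM array lay above the unstimulated array of the same number for all 3 genes. The blocked fit without replicate 3 called Psmb5 and Psmb6 in wt/flox cells, where they rose by 0.23 ± 0.08 and 0.31 ± 0.08 (adjusted p = 0.0310 and 0.00986), and Psmb6 in flox/del cells, where it rose by 0.26 ± 0.09 (adjusted p = 0.0487).

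Setting each immunoproteasome gene against its standard counterpart on the same array removes what an array does to both alike. Only the shift of such a difference between arrays can be read, since the 2 probe sets have no common scale. For Psmb8 minus Psmb5 the difference was -0.33, 0.25 and 0.18 on the flox/del IgM arrays, against 1.05, 1.29 and 1.39 on the flox/del unstimulated arrays. It was -0.68, -0.45 and -0.53 on the wt/flox IgM arrays, against 1.16, 1.22 and 1.50 on the wt/flox unstimulated arrays. Flox/del IgM replicate 3 lay here between its group mates. For Psmb9 minus Psmb6 the difference ranged from -2.22 to -0.97 over the 6 IgM arrays, against -0.77 to -0.02 over the 6 unstimulated arrays. For Psmb10 minus Psmb7 it ranged from -2.99 to -2.23 over the IgM arrays, against -1.46 to -0.85 over the unstimulated arrays. None of the 3 differences overlapped between IgM and unstimulated arrays, the outlying array included. Their mean shifts with IgM were -1.21, -1.11 and -1.49 in flox/del cells and -1.84, -1.48 and -1.65 in wt/flox cells. These shifts are given as a description, without a test.

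**Figure D2:**
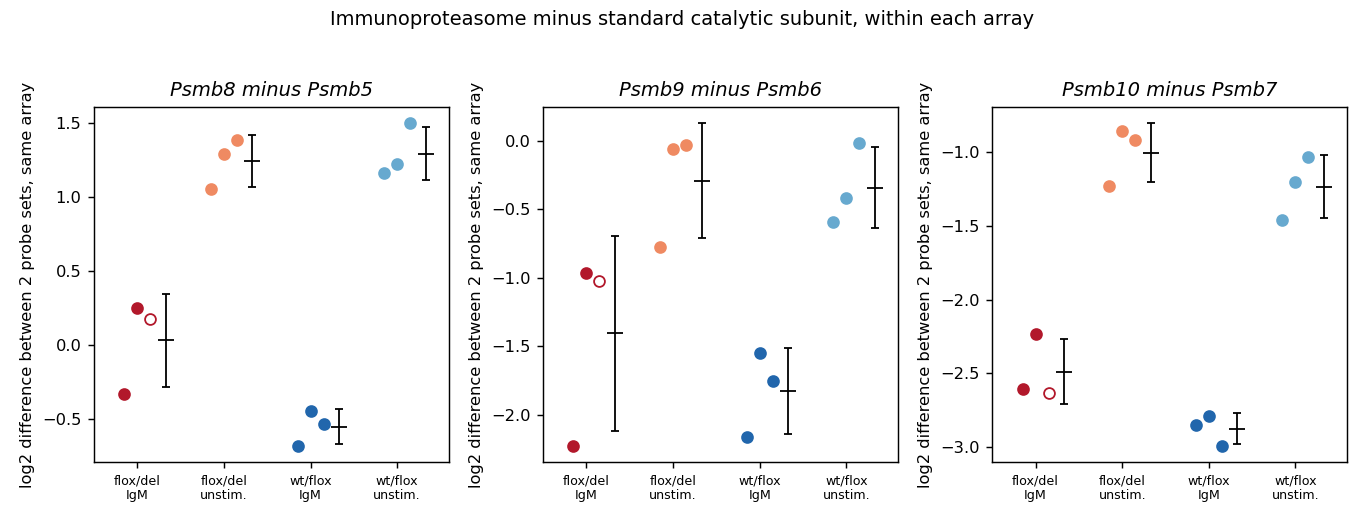
Log2 difference on the same array between each immunoproteasome gene and the standard catalytic gene it replaces, for the 4 groups. Points are arrays, the open point is flox/del IgM replicate 3, and bars are the mean ± SD of 3 arrays. All IgM arrays lie below all unstimulated arrays in each panel, and the open point lies between or next to its group mates.

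Cell type markers moved with the treatment as well. The mean of the 7 pan-B marker genes measured here (Cd79a, Cd79b, Ms4a1, Cd22, Blnk, Pax5 and Ptprc) was 10.8 to 11.2 on the flox/del IgM arrays, against 12.3 to 12.4 on the flox/del unstimulated arrays. It was 10.8 to 11.0 on the wt/flox IgM arrays, against 12.2 to 12.3 on the wt/flox unstimulated arrays. Of the 7 genes, 2 fell in flox/del cells, where 9.21% of all genes did, and 3 in wt/flox cells, where 1111 of 9293 genes did. Without flox/del IgM replicate 3 there were 3 in flox/del cells and 7 in wt/flox cells, where 12.8% and 19.5% of all genes fell. With the block there were 5 and 7, where 1796 and 1854 of 9293 genes fell. Of 8 T cell genes on the array, Cd4, Cd8b1 and Thy1 lay at the floor on all arrays and 3 were tested, with 0 called with all arrays. Of 8 macrophage and monocyte genes, Itgam and Fcgr1 lay at the floor and 6 were tested. The mean of the 8 ranged from 4.75 to 6.08, 5.07 to 6.23, 3.86 to 4.41 and 4.10 to 4.83 on the flox/del IgM, flox/del unstimulated, wt/flox IgM and wt/flox unstimulated arrays. Between flox/del and wt/flox cells Csf1r was called higher with IgM, and without IgM Csf1r was called higher and Adgre1 lower, where 1.72% and 2.85% of all genes were called. Between IgM and unstimulated arrays, 1 macrophage and monocyte gene fell in wt/flox cells and 0 were called in flox/del cells with all arrays. Of 6 plasma cell genes tested, Prdm1 was called higher in flox/del than in wt/flox cells with IgM. Between IgM and unstimulated arrays, Prdm1 rose and Mzb1 fell in flox/del cells, and Sdc1 fell in wt/flox cells. The NK cell gene Klrk1 was called higher in flox/del cells without IgM, and Zbtb46 and Tfrc, listed for dendritic and erythroid cells, rose with IgM in both genotypes. The mean of 9 neutrophil genes ranged from 4.52 to 9.84, 6.37 to 10.63, 3.97 to 6.62 and 4.27 to 7.39 on the flox/del IgM, flox/del unstimulated, wt/flox IgM and wt/flox unstimulated arrays, with 0 of 9 called with all arrays. Without flox/del IgM replicate 3, 2 of the 9 were higher in flox/del than in wt/flox cells with IgM and 4 without IgM, where 2.35% and 5.93% of all genes were called. The part of these markers in the proteasome results was not tested. In such bulk samples fewer cells of a type and less RNA per cell cannot be told apart.

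Windows around the transcription start are shown for the 3 immunoproteasome genes that fell, for Psmb5 as a standard counterpart and for Psme3, the member that rose most. Each holds 250 bases before and 50 after the start, from RefSeq on GRCm38.p6. The windows are chr17:34197945-34198244 (plus strand) for Psmb8, chr17:34187281-34187580 (minus strand) for Psmb9, chr8:105938343-105938642 (minus strand) for Psmb10, chr14:54617946-54618245 (minus strand) for Psmb5 and chr11:101315963-101316262 (plus strand) for Psme3. Capitals mark a match on either strand to the STAT motif TTCNNNGAA in Psmb8, to CCAAT (read as ATTGG) in Psmb9 and Psme3, and to the antioxidant response element core TGACNNNGC in Psmb5. Psmb10 has none of the 4 motifs searched in this window.
Psmb8: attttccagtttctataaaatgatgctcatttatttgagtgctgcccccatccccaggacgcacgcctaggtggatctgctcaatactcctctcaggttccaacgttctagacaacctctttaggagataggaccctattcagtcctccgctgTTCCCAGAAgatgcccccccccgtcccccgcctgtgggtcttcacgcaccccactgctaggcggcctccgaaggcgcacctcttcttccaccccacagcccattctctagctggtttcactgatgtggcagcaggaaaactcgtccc
Psmb9: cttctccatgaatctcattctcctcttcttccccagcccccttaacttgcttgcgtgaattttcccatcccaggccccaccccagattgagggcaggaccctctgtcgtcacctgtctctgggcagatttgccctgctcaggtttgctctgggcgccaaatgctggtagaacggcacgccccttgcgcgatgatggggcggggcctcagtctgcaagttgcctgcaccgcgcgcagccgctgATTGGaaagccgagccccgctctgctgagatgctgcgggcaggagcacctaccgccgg
Psmb10: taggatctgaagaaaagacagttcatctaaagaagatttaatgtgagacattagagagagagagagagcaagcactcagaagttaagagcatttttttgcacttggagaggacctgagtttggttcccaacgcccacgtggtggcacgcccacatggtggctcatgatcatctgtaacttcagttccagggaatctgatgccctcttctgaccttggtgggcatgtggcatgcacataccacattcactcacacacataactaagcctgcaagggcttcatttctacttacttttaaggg
Psmb5: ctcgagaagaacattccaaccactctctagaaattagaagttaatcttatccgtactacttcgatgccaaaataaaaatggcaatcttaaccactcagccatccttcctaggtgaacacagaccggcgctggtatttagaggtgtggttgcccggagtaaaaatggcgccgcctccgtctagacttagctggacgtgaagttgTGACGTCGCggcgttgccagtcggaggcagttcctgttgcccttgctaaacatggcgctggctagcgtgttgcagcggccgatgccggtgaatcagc
Psme3: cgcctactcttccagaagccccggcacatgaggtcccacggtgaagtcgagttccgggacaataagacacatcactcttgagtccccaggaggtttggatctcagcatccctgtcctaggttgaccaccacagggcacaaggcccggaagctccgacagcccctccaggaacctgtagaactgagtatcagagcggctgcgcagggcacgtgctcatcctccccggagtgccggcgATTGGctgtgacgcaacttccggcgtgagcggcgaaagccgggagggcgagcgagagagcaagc

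The table of windows held 34 of the 40 genes. The interferon regulatory factor motif was found in 4 of the 34 (Psmb3, Psmd4, Psmd9 and Psme1) and in 3.44% of 32851 windows of all genes. The STAT motif was found in 2 of 34 (Psmb8 and Psmd2), against 8.30% of all windows. TGACNNNGC was found in 6 of 34 (Psmb5, Psmb6, Psmc6, Psmd12, Psmd9 and Psme4), against 12.4% of all windows, and in none of the immunoproteasome genes. CCAAT was found in 13 of 34, against 37.4% of all windows. The 4 patterns were searched on both strands. A match describes letters only, and a window without one says only that those letters are not in it.

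Across all 40 genes, 5 were called for IgM in flox/del cells with all 12 arrays, of which 2 rose and 3 fell. The background was 9.78% of all tested genes higher and 9.21% lower. Without replicate 3 there were 9 calls, 6 higher and 3 lower, against 12.9% and 12.8% of all genes. Among wt/flox arrays 1 gene was called, higher, where 20.7% of all genes were called and 8.71% were called higher (809 of 9293 genes higher and 1111 lower). Without the outlying flox/del array there were 10 calls, 7 higher and 3 lower, against 16.6% and 19.5% of all genes. The replicate block with all arrays gave 5 calls in flox/del cells and 5 in wt/flox cells, against 36.7% and 35.5% of all genes. With the block and without flox/del IgM replicate 3 there were 21 (16 higher and 5 lower) and 26 (19 higher and 7 lower), against 53.5% and 63.2%. Leaving out any of the other 11 arrays in turn gave 0 to 3 calls in either genotype. Counted in either direction, the shares of members that passed were thus near or below those of all genes. By direction this did not hold in the blocked fit without replicate 3. There 2262 of 9293 genes rose and 2714 fell in flox/del cells, and 2745 rose and 3129 fell in wt/flox cells. The share of members that rose was thus above that of all genes, and the share that fell below it. This difference was not tested. The median log2 difference of the 4 immunoproteasome genes was -1.72 in flox/del cells (-0.97 without replicate 3) and -1.35 in wt/flox cells. The median of the other 36 was -0.22 in flox/del cells (0.29 without replicate 3) and 0.22 in wt/flox cells, beside -0.08 (-0.06) and -0.05 over all genes tested. All 4 immunoproteasome genes lay lower with IgM without overlap between the groups in both genotypes, as did 17.9% of all genes in flox/del cells and 24.5% in wt/flox cells. Of the other 36 genes, 13 lay higher without overlap in wt/flox cells, as did 21.0% of all genes. In flox/del cells 4 of the 36 did with all arrays and 19 without replicate 3, against 16.6% and 25.2% of all genes.

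**Figure D3:**
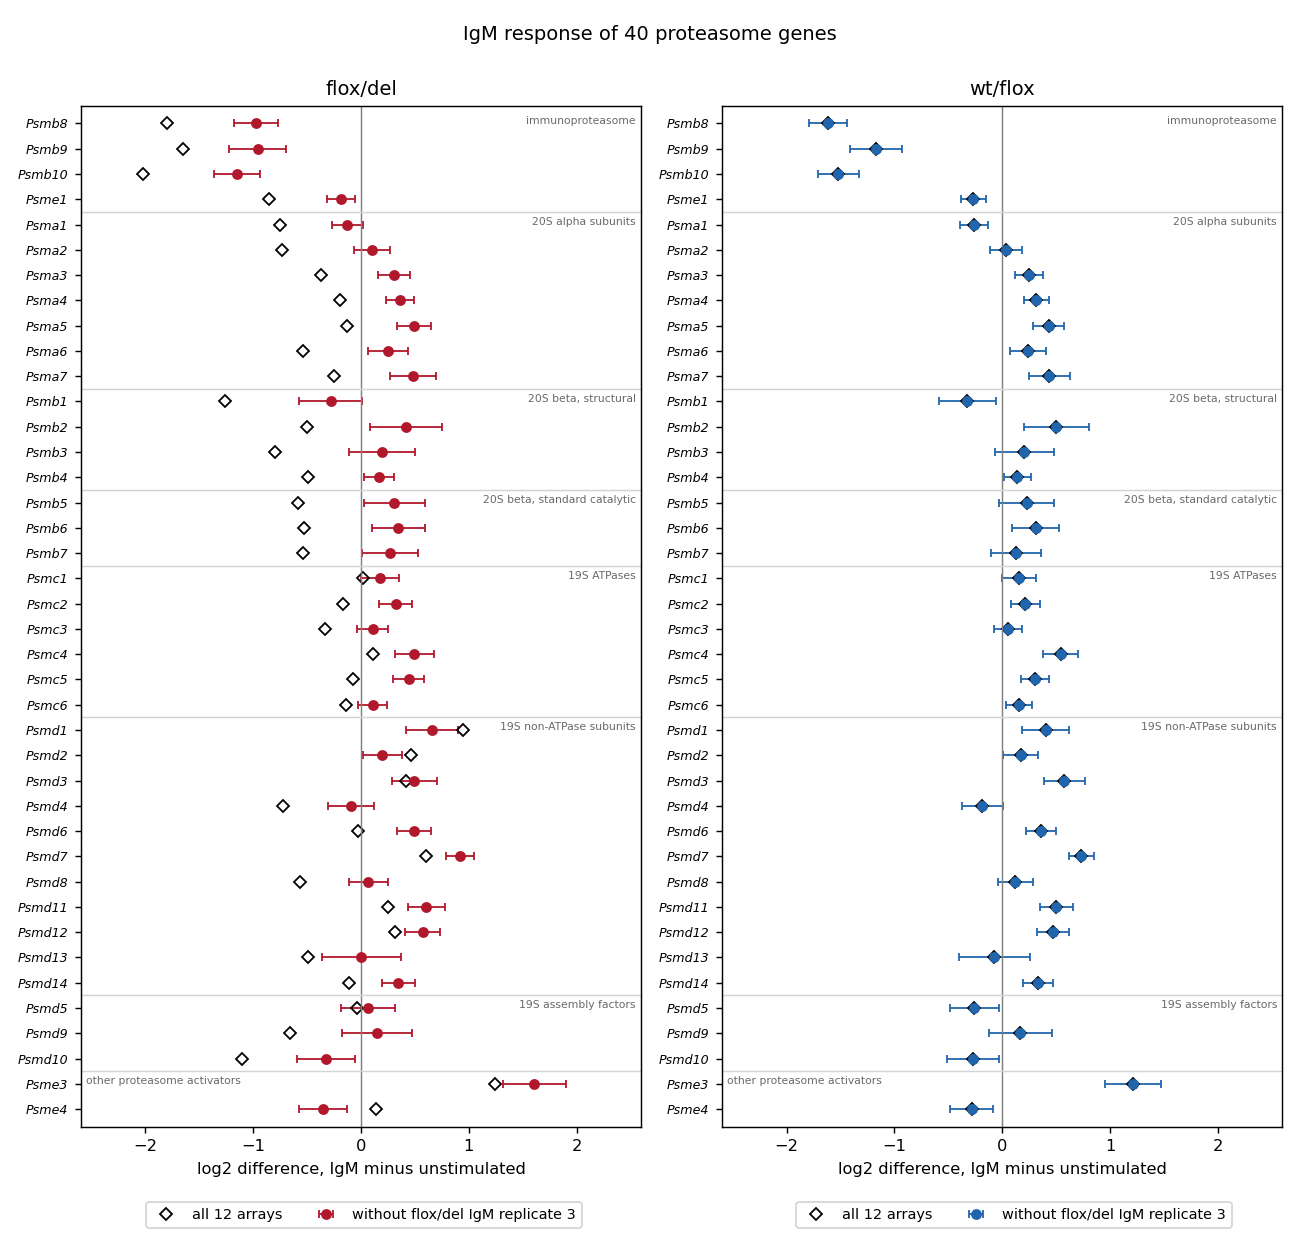
Log2 difference between IgM and unstimulated arrays for the 40 proteasome genes by role, in flox/del cells (left) and wt/flox cells (right). Open diamonds are the fit to all 12 arrays and filled circles with SE bars the fit without flox/del IgM replicate 3. Psmb8, Psmb9 and Psmb10 lie farthest to the left and Psme3 farthest to the right in the circles of both panels, and most diamonds of flox/del cells lie left of their circles.

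The 20S core genes apart from the immunoproteasome ones did not share a direction with IgM in wt/flox cells. With all arrays the alpha differences there ran from -0.26 to 0.44 and the structural beta differences from -0.32 to 0.50. In flox/del cells they ran from -0.75 to -0.13 and from -1.26 to -0.49. The alpha subunits, Psma1 to Psma7, build the outer rings and the gate. With all arrays, 0 of the 7 were called in either genotype, with medians of -0.37 in flox/del cells and 0.25 in wt/flox cells. Without replicate 3 the flox/del median was 0.31, and Psma5 rose by 0.49 ± 0.16 in flox/del cells (adjusted p = 0.0449) and by 0.43 ± 0.14 in wt/flox cells (adjusted p = 0.0377). The structural beta genes, Psmb1 to Psmb4, gave 0 calls of 4 in either genotype with all arrays or without replicate 3. Their medians were -0.65 in flox/del cells (0.18 without replicate 3) and 0.17 in wt/flox cells. Psma1 and Psmb1 had negative differences in both genotypes, -0.26 and -0.32 in wt/flox cells, and did not pass with all arrays or without replicate 3. In the blocked fit without replicate 3 both fell in wt/flox cells (adjusted p = 0.0314 and 0.00882), and Psmb1 fell by 0.44 ± 0.10 in flox/del cells (adjusted p = 0.00497). That fit also called Psma3, Psma4, Psma5 and Psma7 higher in both genotypes, and Psma6 and Psmb2 higher in wt/flox cells.

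The direction of the 19S cap genes with IgM in flox/del cells differed with and without replicate 3. With all arrays, 2 of 6 ATPase genes, 6 of 11 other subunits and 0 of 3 assembly factors had positive differences there, and 6, 10 and 2 did without it. In wt/flox cells the counts were 6, 9 and 1. Of the 6 ATPase genes, Psmc1 to Psmc6, which unfold the substrate, 0 were called with all arrays. The other probe sets of Psmc6 did pass in flox/del cells, at 1.18 ± 0.35 (adjusted p = 0.0380) and 0.84 ± 0.23 (adjusted p = 0.0272). Psmc4 rose by 0.54 ± 0.16 in wt/flox cells without the outlying flox/del array (adjusted p = 0.0274), and its difference in flox/del cells was 0.50 ± 0.18 (adjusted p = 0.0766). The median was 0.18 in wt/flox cells, and -0.11 in flox/del cells (0.25 without replicate 3). In the blocked fit without replicate 3, Psmc2, Psmc4 and Psmc5 rose in both genotypes. Of the 11 other cap subunits, 1 was called in flox/del cells with all arrays. This was Psmd1, a large scaffold subunit, with 11.38, 11.50 and 12.32 on the flox/del IgM arrays, against 10.92, 11.13 and 10.31 without IgM. Its wt/flox values were 11.09, 11.43 and 11.13 with IgM, against 10.84, 10.99 and 10.60 without. The groups did not overlap, and the highest value was on flox/del IgM replicate 3. Psmd1 rose by 0.95 ± 0.29 in flox/del cells (adjusted p = 0.0447). Without that array the difference was 0.66 ± 0.24 (adjusted p = 0.0765), and in wt/flox cells it was 0.40 ± 0.29 (adjusted p = 0.403). It passed in both genotypes in the blocked fit without that array (adjusted p = 0.0155 in flox/del cells and 0.0224 in wt/flox cells).

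Without replicate 3, Psmd7, Psmd11 and Psmd12 rose in both genotypes, Psmd6 passed in flox/del cells and Psmd3 in wt/flox cells. These genes are named from that fit, after their values were seen. Psmd7, a partner of the deubiquitinase subunit Psmd14, had 10.49, 10.60 and 9.61 on the flox/del IgM arrays, against 9.48, 9.76 and 9.64 without IgM. Its wt/flox values were 10.64, 10.60 and 10.58 with IgM, against 9.89, 9.89 and 9.84 without. The wt/flox groups did not overlap, and the flox/del groups overlapped only through replicate 3. Psmd7 rose by 0.92 ± 0.13 in flox/del cells (adjusted p = 0.00101) and by 0.73 ± 0.12 in wt/flox cells (adjusted p = 0.00121) without replicate 3. With all arrays the adjusted p was 0.116 in flox/del cells and 0.0602 in wt/flox cells, and with the replicate block it was 0.0284 in wt/flox cells. Another Psmd7 probe set, of lower level, did not pass with all arrays and overlapped in both genotypes. It gave -0.44 ± 0.51 in flox/del cells (adjusted p = 0.599) and 0.37 ± 0.51 in wt/flox cells (adjusted p = 0.711). Its flox/del IgM values were 6.87, 6.70 and 4.61, against 6.65, 6.58 and 6.25 without IgM. Psmd11 and Psmd12, scaffold subunits of the lid, rose by 0.61 ± 0.17 and 0.57 ± 0.16 in flox/del cells and by 0.50 ± 0.16 and 0.47 ± 0.15 in wt/flox cells. Psmd6 and Psmd3, also of the lid, had 0.49 ± 0.16 and 0.50 ± 0.21 in flox/del cells and 0.36 ± 0.14 and 0.58 ± 0.19 in wt/flox cells, and Psmd3 also passed there with the replicate block (adjusted p = 0.0156). In the blocked fit without replicate 3, Psmd3, Psmd6 and Psmd14, the deubiquitinase subunit, rose in both genotypes. Another probe set of Psmd11 passed with all arrays, at 0.79 ± 0.25 in flox/del cells (adjusted p = 0.0491) and 1.04 ± 0.25 in wt/flox cells (adjusted p = 0.0140). Further Psmd11 probe sets, of higher level, rose without passing. They gave 0.37 and 0.34 in flox/del cells (adjusted p = 0.387 and 0.462). In wt/flox cells they gave 0.66 and 0.57 (adjusted p = 0.128 and 0.230). The assembly factors Psmd5, Psmd9 and Psmd10, which help build the base of the cap, gave 0 calls of 3 in either genotype with all arrays or without replicate 3, with medians of -0.66 in flox/del cells (0.07 without replicate 3) and -0.26 in wt/flox cells. Psmd10 fell by 0.44 ± 0.11 in flox/del cells and by 0.27 ± 0.09 in wt/flox cells in the blocked fit without replicate 3 (adjusted p = 0.00912 and 0.0299).

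Psme3, which encodes a nuclear cap that opens the core without ubiquitin, was the member with the largest rise. It had 11.22, 11.42 and 10.21 on the flox/del IgM arrays, against 9.68, 10.19 and 9.28 on the flox/del unstimulated arrays. It had 11.38, 11.62 and 11.13 on the wt/flox IgM arrays, against 10.19, 10.52 and 9.80 without IgM. All IgM arrays lay above the unstimulated arrays of their genotype, flox/del IgM replicate 3 only just. Psme3 rose by 1.24 ± 0.35 in flox/del cells (2.36-fold, adjusted p = 0.0313) and by 1.21 ± 0.35 in wt/flox cells (2.31-fold, adjusted p = 0.0323). Without replicate 3 the flox/del rise was 1.61 ± 0.29 (adjusted p = 0.00321). Another probe set of the gene gave 1.48 in flox/del cells (adjusted p = 0.0215) and 1.18 in wt/flox cells (adjusted p = 0.0539). Psme4, which encodes the other nuclear cap, had 10.67, 10.80 and 12.21 on the flox/del IgM arrays, against 11.11, 11.02 and 11.14 without IgM. Its wt/flox values were 10.12, 10.70 and 10.83 with IgM, against 10.59, 10.87 and 11.05 without. Replicate 3 alone stood above the other flox/del arrays, and the difference did not pass in either genotype (0.14 ± 0.37, adjusted p = 0.830, and -0.28 ± 0.37, adjusted p = 0.685).

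**Figure D4:**
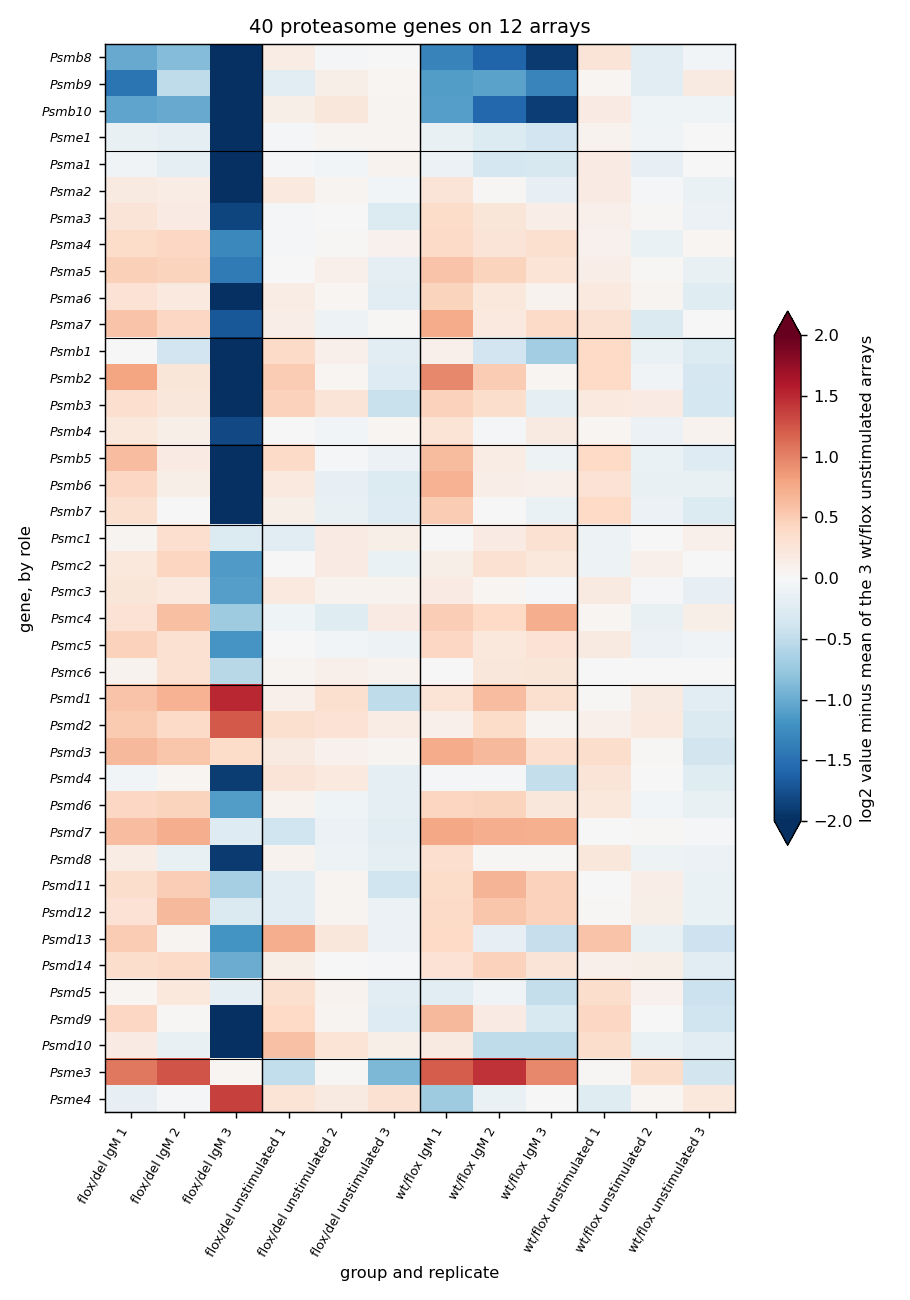
Log2 value of each of the 40 genes on each array minus the mean of the 3 wt/flox unstimulated arrays, with genes grouped by role and arrays by group. Red is higher and blue lower, and colours saturate at 2 log2 units on either side. The column of flox/del IgM replicate 3 is blue for most genes and red for Psmd1, Psmd2 and Psme4. Psmd3 (0.36) and Psme3 (0.045) also lie above the reference in that column, by less. Psmb8, Psmb9 and Psmb10 are blue on all 6 IgM arrays.

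The second question was whether the proteasome genes differed between flox/del and wt/flox cells. They were not shown to with all arrays. Without IgM, 0 of the 40 were called (limma, 0 at an unadjusted p under 0.05), where 2.85% of all genes were, and the medians were 0.03 for the 4 immunoproteasome genes and 0.02 for the other 36. With IgM, 0 of 40 were called (0 at an unadjusted p under 0.05), where 1.72% of all genes were. For the interaction, in which the unstimulated genotype difference is subtracted from the one under IgM, 0 of 40 were called (0 at an unadjusted p under 0.05), where 0.108% of all genes were. The smallest adjusted p without IgM belonged to Psme3, with a flox/del minus wt/flox difference of -0.46 ± 0.35 (adjusted p = 0.991). Psmd2, a cap scaffold that receives ubiquitin shuttles, had the next smallest p, with 0.25 ± 0.25 (adjusted p = 1). Without flox/del IgM replicate 3 and without the block, 0 of 40 were called in each of these comparisons. There 5.93% of all genes were called without IgM, 2.35% with IgM and 16 of 9293 for the interaction. An unadjusted p under 0.05 was reached by 0 members without IgM, by 2 immunoproteasome genes with IgM and by 1 for the interaction. With the replicate block and without flox/del IgM replicate 3, where 21.6% of all genes were called, 3 members passed without IgM: Psmd10 (0.33 ± 0.09), Psmd13 (0.28 ± 0.08) and Psme3 (-0.46 ± 0.10).

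With IgM the sign of the genotype difference rested on flox/del replicate 3. The median over the 4 immunoproteasome genes was -0.44 with all arrays and 0.34 without it, and over the other 36 genes it was -0.47 and 0.05, beside 0.08 and 0.03 over all genes. Psmb8 differed by -0.15 ± 0.54 with all arrays and by 0.67 ± 0.20 without replicate 3 (adjusted p = 0.900 and 0.143). With the replicate block and without that array, where 13.2% of all genes were called, Psmb8 passed at 0.61 ± 0.15 (adjusted p = 0.0382). Psmb10 differed by -0.38 ± 0.57 and by 0.50 ± 0.21 (adjusted p = 0.750 and 0.355). Psmd2 had 11.12, 10.98 and 11.83 on the flox/del IgM arrays, against 10.70, 10.96 and 10.65 on the wt/flox IgM arrays, and 10.92, 10.88 and 10.75 on the flox/del unstimulated arrays, against 10.70, 10.79 and 10.31 on the wt/flox unstimulated ones. With IgM the flox/del values all lay above the wt/flox values, replicate 2 of flox/del only just. Psmd2 was the only member to do so, as did 12.3% of all genes. Without replicate 3, 2 of the 4 immunoproteasome genes (Psmb8 and Psmb10) and 3 of the other 36 (Psmc3, Psmd2 and Psmd5) did, against 19.4% of all genes. Psmd2 and Psme4 had the smallest p with IgM, with differences of 0.54 ± 0.25 (adjusted p = 0.371) and 0.67 ± 0.37 (adjusted p = 0.453), which were 0.28 ± 0.18 and 0.18 ± 0.22 without replicate 3. For the interaction the smallest p belonged to Psmd1, with 0.55 ± 0.41, and to Psmd8, a lid subunit, with -0.69 ± 0.61 (adjusted p = 0.951 each). Psmd8 had 11.74, 11.45 and 9.69 on the flox/del IgM arrays, against 11.68, 11.49 and 11.42 without IgM. Its wt/flox values were 11.93, 11.62 and 11.62 with IgM, against 11.83, 11.49 and 11.48 without. Its low value was flox/del IgM replicate 3, and without that array its interaction was -0.05 ± 0.24.

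Genes that work with the proteasome were followed in 5 further lists. With all arrays or without replicate 3, 0 of their genes were called between genotypes or for the interaction. The replicate block called Stat2 lower in flox/del cells without IgM (-0.99 ± 0.24, adjusted p = 0.0391), and Tap2 (0.88 ± 0.21) and Ifngr1 (0.56 ± 0.14) higher with IgM (adjusted p = 0.0428 each), where 6.89% and 6.76% of all genes were called. The blocked fit without replicate 3 called 4 without IgM (Pomp higher, and Maff, Psmg1 and Stat2 lower), 6 with IgM (Ifngr1, Jak2, Ngly1, Pdia3, Tap2 and Tapbp, all higher) and Jak2 for the interaction (0.82 ± 0.15, adjusted p = 0.0412), where 21.6%, 13.2% and 2.01% of all genes were called. For calls with IgM in the lists, 9.78% of all genes rose and 9.21% fell in flox/del cells with all arrays. In wt/flox cells 809 of 9293 genes rose and 1111 fell. Without replicate 3, 12.9% rose and 12.8% fell in flox/del cells, and 16.6% and 19.5% in wt/flox cells. With the block, 1612 genes rose and 1796 fell in flox/del cells, and 1445 and 1854 in wt/flox cells. With both, 2262 rose and 2714 fell in flox/del cells, and 2745 and 3129 in wt/flox cells. Of 12 measured assembly chaperones and bound factors, Usp14 and Ube3c rose with IgM in flox/del cells with all arrays and 0 passed in wt/flox cells (2 at an unadjusted p under 0.05). Usp14, a deubiquitinase on the cap, rose by 1.05 ± 0.28 (adjusted p = 0.0251), and Ube3c, a ligase that extends ubiquitin chains, by 1.43 ± 0.42 (adjusted p = 0.0350). Without replicate 3 there were 5 rises in flox/del cells and 7 in wt/flox cells, with the block 3 and 2, and with both 7 and 9. Psmg1 and Psmg2, which pair to chaperone the alpha ring, were among both, with 1.17 ± 0.29 and 0.99 ± 0.20 in flox/del cells and 0.88 ± 0.26 and 0.86 ± 0.18 in wt/flox cells.

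Of 6 measured genes of proteasome transcription and recovery, 4 rose and 1 fell in each genotype, with all arrays, without replicate 3 and with the block. Maff, Mafk and Mafg, small Maf proteins that pair with Nfe2l1 and Nfe2l2, rose by 3.69 ± 0.43, 1.79 ± 0.25 and 1.39 ± 0.20 in flox/del cells and by 3.79 ± 0.43, 1.68 ± 0.25 and 1.55 ± 0.20 in wt/flox cells. Nfe2l1, known for raising transcription of proteasome genes when the proteasome is inhibited, rose by 0.83 ± 0.20 in flox/del cells and by 0.83 ± 0.20 in wt/flox cells (adjusted p = 0.0160 and 0.0140). Ngly1, the enzyme that removes sugars from the Nfe2l1 protein, fell by 0.68 ± 0.21 in flox/del cells and by 1.06 ± 0.21 in wt/flox cells (adjusted p = 0.0430 and 0.00460).

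Of 9 measured genes of ubiquitin shuttles and chain handling, 3 rose in flox/del cells and 2 in wt/flox cells. Ubqln4 rose by 0.88 ± 0.19 in flox/del cells and by 0.98 ± 0.19 in wt/flox cells, and Rad23b, which like Ubqln4 carries tagged proteins to the cap, by 0.58 ± 0.18 and 0.59 ± 0.18. Uba6, a ubiquitin-activating enzyme, rose by 1.13 ± 0.29 in flox/del cells (adjusted p = 0.0201), and in wt/flox cells it passed only with the replicate block or without the outlying array (0.68 ± 0.22, adjusted p = 0.0367 with the block). The blocked fit without replicate 3 also called Ubqln1 higher and Ubqln2 lower in wt/flox cells.

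The class I processing list held all 10 of its genes, of which 1 rose in flox/del cells and 1 rose and 1 fell in wt/flox cells. Erap1, which trims peptides in the endoplasmic reticulum, rose by 1.59 ± 0.33 in flox/del cells (adjusted p = 0.00732) and by 1.03 ± 0.33 in wt/flox cells (adjusted p = 0.0483). Tap2, a subunit of the peptide transporter, lies beside Psmb8 and Psmb9 in the genome. It had 8.77, 9.57 and 9.76 on the flox/del IgM arrays, against 9.58, 10.04 and 9.86 without IgM, and 8.29, 8.92 and 8.24 on the wt/flox IgM arrays, against 9.54, 9.72 and 9.56 without. The groups overlapped in flox/del cells and not in wt/flox cells. Tap2 fell by 1.12 ± 0.29 in wt/flox cells (adjusted p = 0.0177), and its difference in flox/del cells was -0.46 ± 0.29 (adjusted p = 0.295). The interaction for Tap2 was 0.67 ± 0.41 (adjusted p = 0.951). With the replicate block Tap1, the other transporter subunit, passed in wt/flox cells at -0.78 ± 0.24 (adjusted p = 0.0335), and Tapbp, which bridges the transporter to class I molecules, at -0.67 ± 0.22 (adjusted p = 0.0442), and Canx, a chaperone of class I molecules, rose in flox/del cells (0.68 ± 0.20, adjusted p = 0.0275). The blocked fit without replicate 3 called 2 higher and 2 lower in flox/del cells, Tap1 and Tap2 being the lower ones, and 2 higher and 4 lower in wt/flox cells.

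Of 12 measured interferon pathway regulators, 5 fell and 1 rose in flox/del cells and 6 fell in wt/flox cells. Irf2, an interferon regulatory factor, fell by 1.42 ± 0.20 in flox/del cells and by 1.87 ± 0.20 in wt/flox cells (adjusted p = 0.000884 and 0.000174). Irf7, known for driving type I interferon genes, fell by 1.46 ± 0.43 and 1.60 ± 0.43, and Ifngr2, a chain of the interferon gamma receptor, by 0.91 ± 0.22 and 1.35 ± 0.22. Ifngr1, the other receptor chain, fell by 1.13 ± 0.24 in wt/flox cells and by 0.76 ± 0.24 in flox/del cells. Irf8, a factor of B cell and myeloid development, rose by 0.96 ± 0.28 in flox/del cells (adjusted p = 0.0378). In wt/flox cells it also lay higher with IgM, with a mean of 13.25 against 12.43 without, but did not pass with all arrays. Without replicate 3, Irf7, Irf8 and Ifngr1 no longer passed in flox/del cells, where 4 genes fell (Irf2, Irf9, Ifngr2 and Jak1), and in wt/flox cells 7 fell and 1 rose. With the block 6 fell and 1 rose in flox/del cells and 7 fell and 1 rose in wt/flox cells, where Stat2 was among those that fell.

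**Figure D5:**
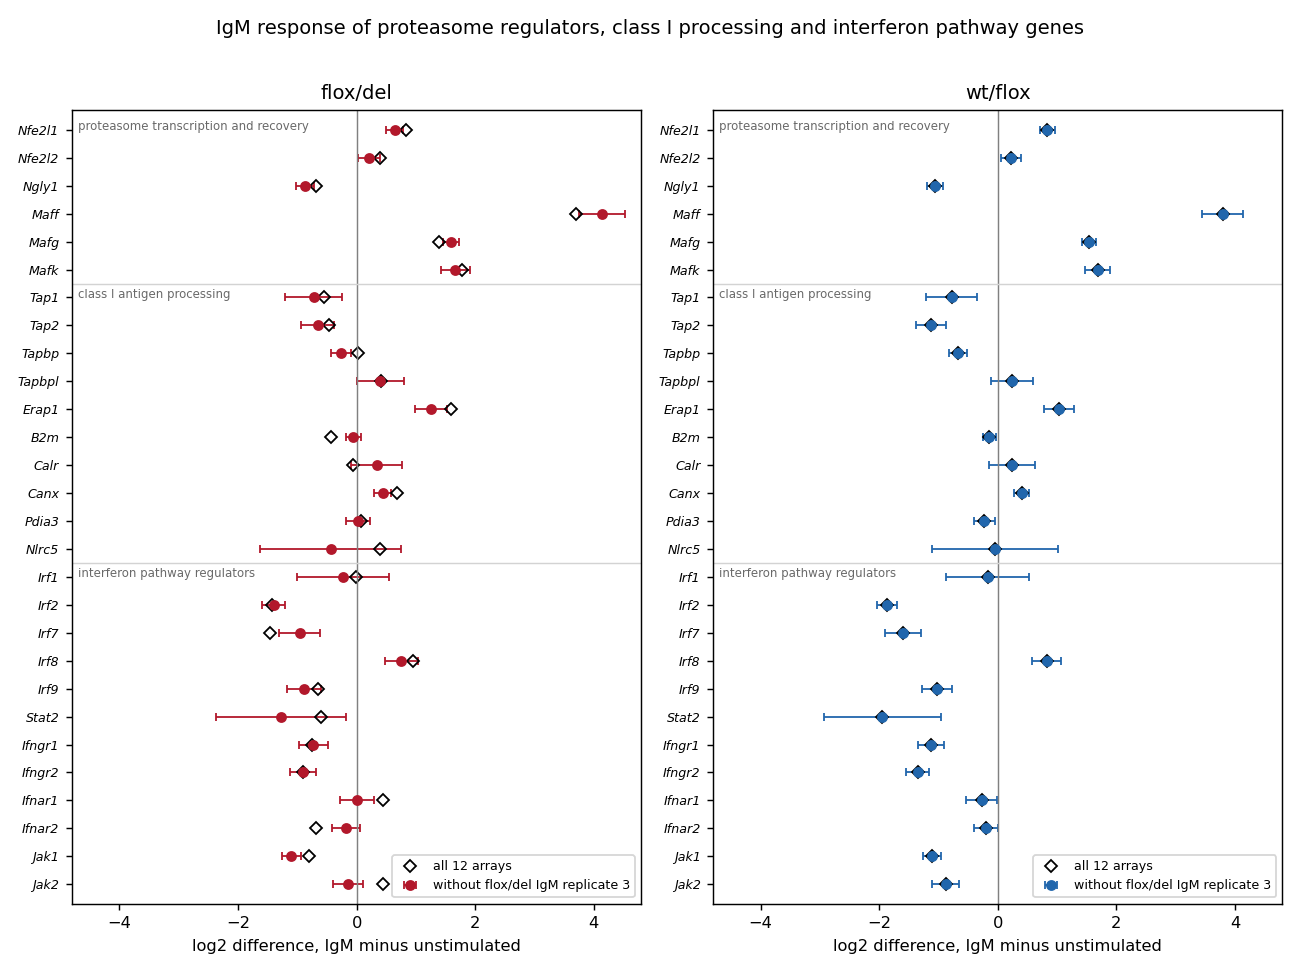
Log2 difference between IgM and unstimulated arrays for measured genes of proteasome transcription and recovery, class I antigen processing and the interferon pathway, in flox/del cells (left) and wt/flox cells (right). Open diamonds are the fit to all 12 arrays and filled circles with SE bars the fit without flox/del IgM replicate 3. Maff, Mafk, Mafg and Nfe2l1 lie right of 0 and Irf2, Ifngr2 and Jak1 left of 0 in both panels.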

How the data were processed

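RNA of 12 samples was hybridised to one-colour Affymetrix arrays. The deposited values are log2 expression per probe set, made by the authors with GCRMA (background correction, quantile normalization and probe summary) per the submitters' processing notes, with no version given in the sources used here. Their range, 2.23 to 15.79, shows the log2 scale. Of 45101 probe sets, 34945 named 1 gene, 932 several and 9160 none, and 64 were controls. Symbols were updated by gene identifier with a RefSeq gene table. Probe sets above 4 on at least 3 arrays were kept, and the one with the highest mean stood for each of 9293 genes.

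Tests used limma 3.58.1 (lmFit, contrasts.fit and eBayes, under R 4.3.3), with 1 mean per group over all 12 arrays. They were two-sided, p-values were adjusted by Benjamini-Hochberg across all 9293 genes, and the threshold was 0.05. Errors are SE of the fit. Tested on simulated data over 9293 genes for flox/del minus wt/flox without IgM, the fit recovered 14 of 67 genes changed by 1 log2 unit, 51 of 67 changed by 2 and 62 of 66 changed by 4, with 8 false calls. The simulated arrays varied independently, with each gene's spread taken over all 12 arrays. They lacked the shared variation of same-numbered arrays, so these counts do not give the recovery or false calls on the real arrays.

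Replicate numbers from the labels recur in every group. After group means were subtracted, arrays with the same number correlated at 0.174 to 0.847, all above 0.1. The main fit and the fit without replicate 3 did not use this pairing. It entered the tests only where a block is named. Calls that the block changed are given beside the gene or as counts per list.

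Members and lists were chosen with earlier results of these data known. Values on every array are given for the immunoproteasome genes, Psmb5, Psmb6 and Psmb7, and, per comparison, the 3 largest rises and falls past the threshold, or the 2 smallest p where none passed. Of other lists, up to 4 genes past the threshold are named. Alternatives covered the filter, probe set, normalization, variance model, array weights, block and arrays left out. Probe sets that name several genes, and genes below the filter, were not analysed here.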

Additional observations from a re-analysis of the deposited data

Results flagged for a closer look

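Psmb3, a structural subunit of the core, moved in opposite directions with IgM in every same-numbered pair of the 2 genotypes. Its flox/del IgM minus unstimulated difference averaged -0.79 (-0.12, -0.03 and -2.23 in pairs 1, 2 and 3), against 0.21 in wt/flox cells (0.27, 0.19 and 0.16). This opposition itself was not tested, the interaction in limma gave an adjusted p of 0.951, and pair 3 holds flox/del IgM replicate 3. Psmb2, another structural subunit, lay lower in flox/del than in wt/flox cells with IgM in every pair, with a mean difference of -0.91 (-0.17, -0.27 and -2.29), and higher without IgM, with a mean of 0.10 (0.11, 0.11 and 0.08). This was likewise not tested as such, and it too holds the outlying array in pair 3. In both genes pairs 1 and 2, which do not hold that array, showed the same opposition at smaller sizes on these probe sets. Another probe set of Psmb3 did not show it in pair 1, with 11.91 on the flox/del IgM array, against 11.81 on the flox/del unstimulated array, and had 11.43 against 11.44 in pair 2.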

How the results depend on the processing

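Directions of the immunoproteasome genes with IgM held under all 25 alternatives for Psmb8, Psmb9, Psmb10 and Psme1 in both genotypes, and that of Psme3 likewise, but calls did not. In flox/del cells Psmb10 lost its call under 7 alternatives, Psmb8 under 13, Psmb9 under 15, Psmd1 under 17 and Psme3 under 8, with adjusted p up to 0.175, 0.175, 0.188, 0.187 and 0.256. In wt/flox cells Psmb10, Psmb8 and Psmb9 gained a call under 6, 8 and 5 alternatives, with adjusted p of 4.33e-05 to 0.379, 2.30e-05 to 0.277 and 0.00161 to 0.442. Psme3 lost its call there under 8.

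The count of members called with IgM in flox/del cells (5) was 12 with array weights, 0 without the filter, 0 in a fit to the 2 groups alone, 0 and 0 without all arrays of replicate 1 and of replicate 2, and 0 to 9 without single arrays. The count in wt/flox cells (1) was 11 with array weights, 0 without the filter, 6 in a fit to the 2 groups alone, 2 with the probe set of largest interquartile range, 0, 0 and 4 without all arrays of replicates 1, 2 and 3, and 0 to 10 without single arrays. With the replicate number as a block, which uses the pairing of the labels, the counts were 5 in flox/del and 5 in wt/flox cells. With the block and without flox/del IgM replicate 3 they were 21 and 26, where 53.5% and 63.2% of all genes were called, and 3 and 1 for genotype without and with IgM.

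The immunoproteasome median in flox/del cells (-1.72) was -0.99 with the block and without replicate 3, -0.96 without replicate 3 of all groups and -0.90 with array weights, and -2.24 to -0.97 without single arrays. That of the other genes ranged from -0.51 to 0.29 without single arrays. Genotype medians of the immunoproteasome genes were 0.12 without IgM and 0.40 with IgM under array weights, and -0.040 to 0.11 and -0.86 to 0.34 without single arrays. The other genes' genotype median with IgM was -0.76 to 0.054 there. Interaction medians were 0.25, 0.13 and 0.22 for the immunoproteasome genes and -0.0043, 0.032 and -0.0038 for the others under the same 3 settings, and -0.93 to 0.29 and -0.78 to 0.047 without single arrays. Psmb5, Psmb6 and Psmb7 turned sign in flox/del cells to 0.18, 0.25 and 0.15 with the block and without replicate 3, to 0.21, 0.25 and 0.18 without replicate 3 of all groups, to 0.22, 0.28 and 0.18 with array weights, and to 0.31, 0.35 and 0.27 without flox/del IgM replicate 3, the upper ends of ranges from -1.14, -1.05 and -1.02 without single arrays. Psmb7 in wt/flox cells ranged from -0.070 (without IgM replicate 1) to 0.33 without single arrays, and was -0.015 without unstimulated replicate 3. The cause of these shifts was not tested beyond the arrays left out. Few arrays limit what a missed call can show.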
